A study of Mus musculus with 4 samples.

Results

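The Jak-STAT cytokine signalling genes bound by MyoD in mouse myotubes are described here. They are the genes with at least 1 MyoD ChIP-seq peak in the gene or its 2-kb flanks whose deposited KEGG annotation names the Jak-STAT pathway. Csf3 and Cdkn1a were left out by rule, and only 1 of them carried that annotation. That left 52 genes of the 7235 with a peak in the gene or its 2-kb flanks. A peak in at least 1 list was therefore a condition of entry, while which list held it was not. The 52 genes were 5 cytokines, 16 receptor chains, 3 Jak kinases, 4 Stat factors, 4 Socs genes, 12 genes of the adaptor and kinase arm, 1 coactivator, 6 target genes and the aldehyde oxidase gene Aox3l1.

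MyoD is a bHLH transcription factor that drives skeletal muscle differentiation, and myotubes are the multinucleated cells formed when myoblasts fuse. The cells were primary myoblasts from 2-week-old C57BL/6 mice. After 5 days of differentiation the myotubes spent 24 hours in differentiation medium, either with pyruvate or without it. There was 1 MyoD ChIP library (antibody SC-760) and 1 input per condition, and the labels do not say how many animals a culture came from. The inputs were not analysed here. The list labelled with pyruvate held 11907 peaks and the list labelled without pyruvate held 19338, and read depth is unknown. Since each condition had a single library, differences between the lists could not be set against replicate spread, and none was tested. A peak seen in a single list may have been below detection in the other. Of 7 myotube marker genes (Myog, Des, Chrna1, Acta1, Ckm, Cdh15, Ttn), 7 had a peak with pyruvate and 6 without. Of 3 fibroblast markers, 0 had a peak with pyruvate and 1 (Col3a1) without. Of 3 macrophage markers, 1 (Cd68) had a peak with pyruvate and 2 (Cd68 and Ptprc) without. A peak does not show expression, so these genes check the labelled cells only in part.

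In the Jak-STAT pathway, a cytokine brings receptor chains together, the Jak kinases attached to them phosphorylate the receptor and the Stat factors docked on it, and Stat dimers then enter the nucleus and switch on target genes. Socs proteins are among those targets and damp the signal. In muscle, cytokines of the interleukin-6 family, growth hormone and erythropoietin are known to act through this route, and Stat3 is known for its part in satellite cell behaviour.

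Of the 52 genes, 31 (59.6%) had a peak in both lists, against 55.1% of all genes. A peak only in the list with pyruvate was found at 2 genes, Il12rb2 and Il6st (3.85%, against 9.95% of all genes). A peak only in the list without pyruvate was found at 19 (36.5%, against 35% of all genes). The shares in both lists and in the list without pyruvate alone were close to those of all bound genes, while the share with pyruvate alone was lower, on 2 genes and with no test. The list without pyruvate was the longer. The split moved when this list was trimmed to its widest peaks, as many as the list with pyruvate holds. That trim changed length and width together, and their parts were not tested. After the trim, 42 of the 52 genes kept a peak. Of these, 24 had one in both lists, 9 only with pyruvate and 9 only without. The same split over all genes was not computed. The list with pyruvate placed 53 peaks at the 52 genes and the list without pyruvate 85. In the list with pyruvate 41 of the 53 peaks shared 1 base or more with a peak of the other list. That is 77.4% (Clopper-Pearson 95% interval 63.8 to 87.7), against 71.5% of its peaks in gene regions. In the list without pyruvate 41 of 85 did, or 48.2% (37.3 to 59.3), against 46.9%. These intervals cover counting error only and include the values over all gene regions.

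**Figure D1:**
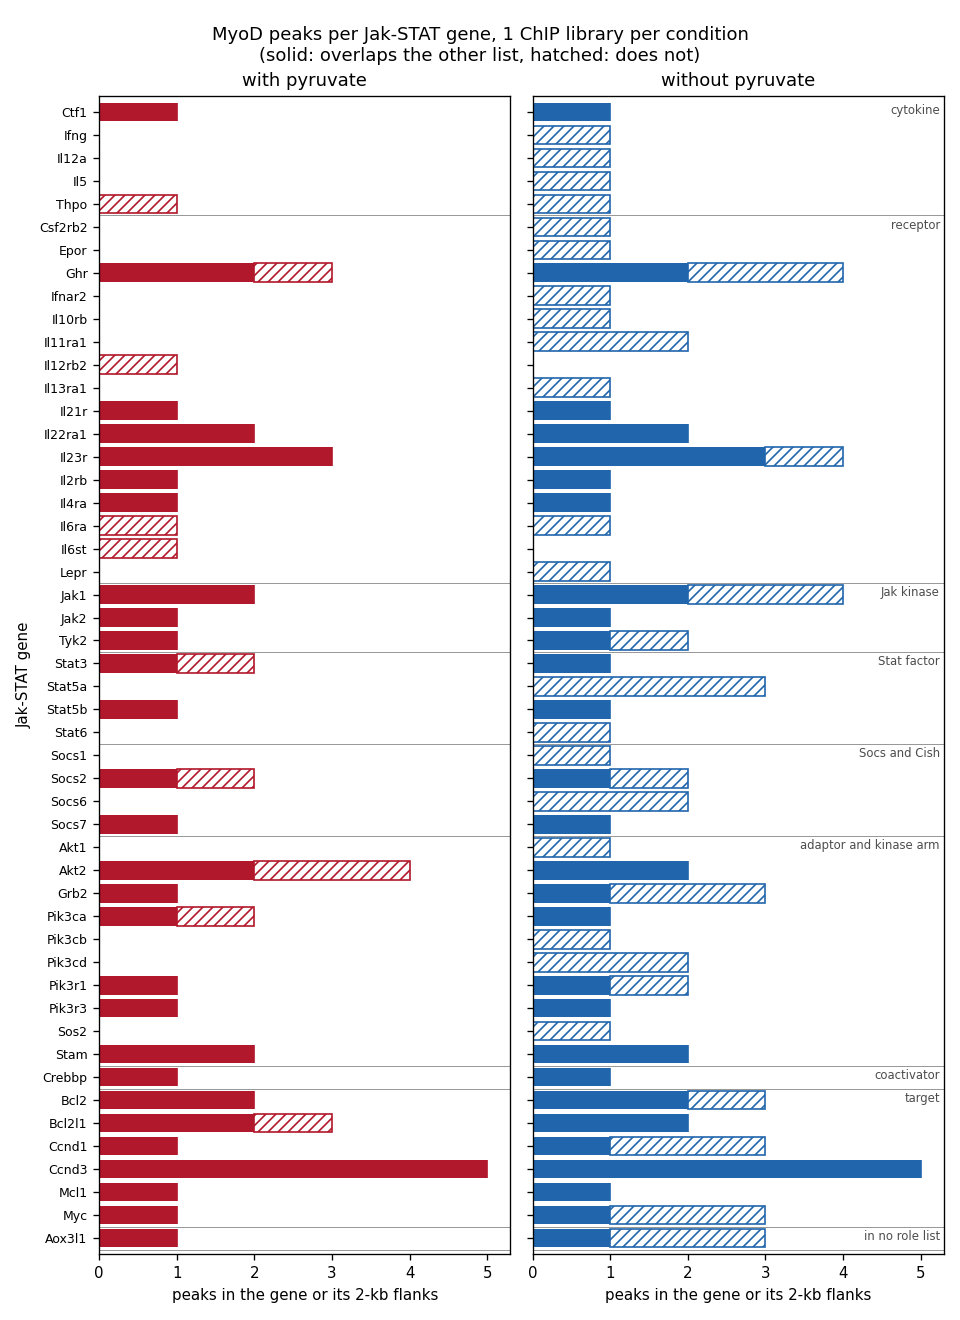
Number of MyoD peaks (x axis) in the body or 2-kb flanks of 50 of the 52 genes (rows, grouped by role), with pyruvate on the left and without pyruvate on the right. Solid bars are peaks that overlap the other list and hatched bars are peaks that do not. All 5 peaks of Ccnd3 are solid in both panels, while the 3 peaks of Stat5a stand on the right alone and are hatched.

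A gene in both lists did not always have the same site in both. At least 1 overlapping site was found at 28 genes (53.8%, against 52.2% of all genes). At the other 3 of the 31, Il6ra and Thpo among them, the peaks of the lists lay apart. At Il6ra, the ligand-binding chain of the interleukin-6 receptor, the peak with pyruvate lay 60 bases upstream of the listed start and the peak without pyruvate lay 43.5 kb downstream of it, near the end of the gene. At Thpo, which encodes the platelet growth factor thrombopoietin, the peaks lay 2669 bases (with pyruvate) and 1376 bases (without pyruvate) downstream of the start, 1103 bases apart. Both Thpo peaks also lay in a listed region of its neighbour Chrd.

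Among the cytokine genes, cardiotrophin-1 had the only site in both lists. Ctf1 encodes a member of the interleukin-6 family. Its peak was 365 bases wide with pyruvate (chr7:134854965-134855330 of mm9, at the 85.2 percentile of width in that list) and 246 bases wide without pyruvate (chr7:134855039-134855285). It lay in a 2-kb flank, and the files do not tell upstream from downstream for this gene. Il5, the eosinophil growth factor, Il12a, the alpha subunit of interleukin-12, and Ifng, interferon gamma, had 1 peak each in the list without pyruvate alone, 171, 213 and 174 bases wide. All 3 were narrower than that list's median of 241 bases, and each lay inside its gene, 1737, 3177 and 4187 bases from the start. For Ifng and Il12a, a peak present in both lists lay close by but outside all gene regions. Near Ifng it was 236 bases wide with pyruvate (chr10:117888879-117889115) and 207 without. Near Il12a it was 241 bases wide with pyruvate (chr3:68487610-68487851) and 277 without. Of 47 cytokine genes of the pathway listed for this comparison, 42 had no peak in the gene or its 2-kb flanks. Il6, Il15, Lif and Osm were among them. Peaks outside all gene regions were looked for only within 10 kb of the 52 genes.

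Among the 16 receptor genes, 7 had a peak in both lists, 2 only with pyruvate and 7 only without. Over all genes the shares were 55.1%, 9.95% and 35%, and the receptor split was not tested. Ifnar2 and Il10rb, both counted as only without pyruvate, rest on the same peak. The interleukin-23 receptor gene had the most sites common to both lists of any receptor. Il23r, on chromosome 6, carried 3 sites in both lists, 59.8, 32.3 and 16.2 kb from its start, and no peak near the start itself. In that order they were 298, 298 and 224 bases wide with pyruvate and 302, 350 and 333 bases without. A further peak, 251 bases wide and 27.9 kb from the start, was in the list without pyruvate alone. The next gene, Il12rb2, a chain of the interleukin-12 receptor, had 1 peak of 169 bases in the list with pyruvate alone (chr6:67250927-67251096), which is the smallest width in that list. Il22ra1, a chain of the interleukin-22 receptor, had 2 sites in both lists, 8.94 and 3.02 kb from the start with pyruvate. The widths of the first were 245 bases with pyruvate and 328 without, and those of the second 173 and 167 bases.

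Ghr, the growth hormone receptor gene, is long (266 kb) and carried 3 peaks with pyruvate and 4 without. Sites 154 and 150 kb from its start were in both lists. The site at 154 kb was 287 bases wide with pyruvate (chr15:3379478-3379765) and 405 bases without pyruvate (chr15:3379421-3379826), and the site at 150 kb was 219 and 206 bases wide. A peak 241 kb from the start was in the list with pyruvate alone, and peaks at 186 kb and beside the site at 154 kb were in the list without pyruvate alone. The peak beside the site at 154 kb was 163 bases wide and lay 138 bases from that site's peak with pyruvate. The list without pyruvate also held a peak of 296 bases outside all gene regions, 4402 bases upstream of the listed Ghr body.

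**Figure D2:**
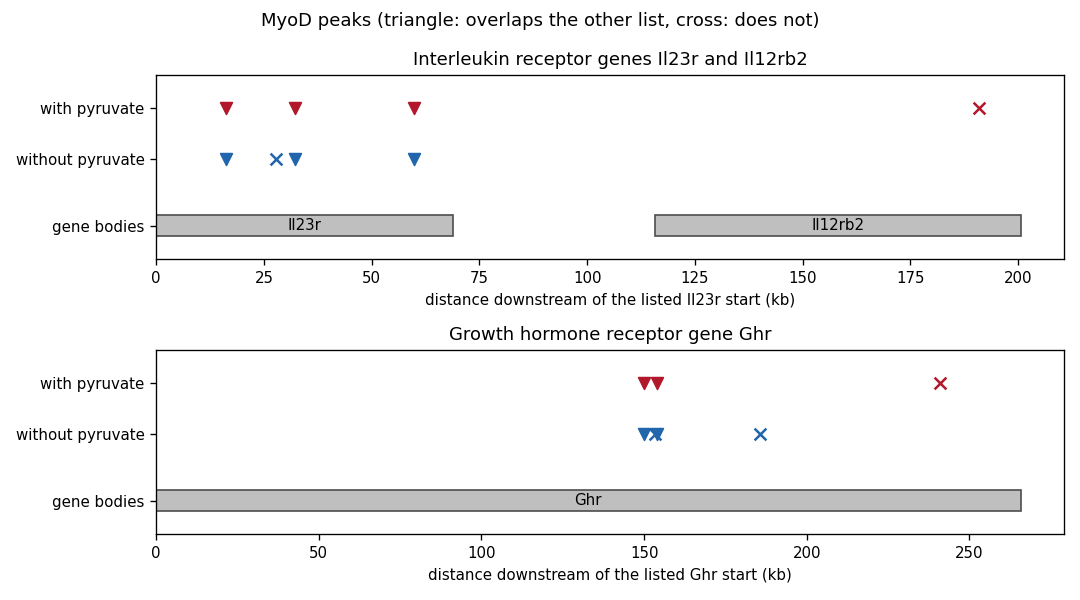
Maps of Il23r with its neighbour Il12rb2 (top) and of Ghr (bottom), with distance downstream of the listed start in kb on the x axis and gene bodies in grey. Peaks with pyruvate are in the upper row of each map and peaks without pyruvate in the lower row, with triangles for peaks that overlap the other list and crosses for those that do not. Il23r has 3 triangles in each row, and the only peak in Il12rb2 is in the upper row.

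Receptor peaks at a start site were few. Il21r, the interleukin-21 receptor, had one in both lists. It spanned from -68 to 144 bases around the listed start with pyruvate (212 bases, chr7:132746875-132747087) and from -17 to 185 bases without pyruvate (202 bases, chr7:132746926-132747128). Its neighbour Il4ra, a chain of the interleukin-4 and interleukin-13 receptors, had a peak in both lists in a flank of unknown side, 209 bases wide with pyruvate and 196 without. Il2rb, a chain of the interleukin-2 and interleukin-15 receptors, also had one, 315 bases with pyruvate and 265 without. Il6ra had its start-site peak in the list with pyruvate alone (190 bases, chr3:89717049-89717239, from -155 to 35 bases). Epor, the erythropoietin receptor, had one in the list without pyruvate alone (190 bases, chr9:21767885-21768075, from -55 to 135 bases). Il10rb, a chain of the interleukin-10 and interleukin-22 receptors, had a peak of 298 bases 845 bases from its start in that list. The same peak lay in a flank of Ifnar2, the adjoining type I interferon receptor gene, and was counted a single time among the peaks.

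The promoters of Il21r, Epor and Il6ra are shown because theirs were the only peaks to span a start among the 44 genes with a listed body, and because MyoD binds DNA at E-boxes, CANNTG. They were matched by symbol and come from RefSeq, build GRCm38.p6, as 250 bases before to 50 after the start, while the peaks are in mm9. A RefSeq start may differ from the start in the files. Capitals mark E-boxes. Il21r is chr7:125603179-125603478 (+), Epor is chr9:21963527-21963826 (-) and Il6ra is chr3:89913147-89913446 (-).
Il21r: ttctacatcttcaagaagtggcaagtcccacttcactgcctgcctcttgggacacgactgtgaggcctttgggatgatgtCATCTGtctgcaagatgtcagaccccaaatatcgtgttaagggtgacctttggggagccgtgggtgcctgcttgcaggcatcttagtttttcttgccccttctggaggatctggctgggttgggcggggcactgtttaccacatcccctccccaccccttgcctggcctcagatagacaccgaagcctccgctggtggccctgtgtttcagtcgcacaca
Epor: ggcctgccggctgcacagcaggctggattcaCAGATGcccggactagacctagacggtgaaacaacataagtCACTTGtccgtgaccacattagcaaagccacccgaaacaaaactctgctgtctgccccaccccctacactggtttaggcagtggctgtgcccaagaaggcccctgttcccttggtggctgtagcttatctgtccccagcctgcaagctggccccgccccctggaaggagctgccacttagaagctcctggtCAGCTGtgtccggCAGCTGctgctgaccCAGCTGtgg
Il6ra: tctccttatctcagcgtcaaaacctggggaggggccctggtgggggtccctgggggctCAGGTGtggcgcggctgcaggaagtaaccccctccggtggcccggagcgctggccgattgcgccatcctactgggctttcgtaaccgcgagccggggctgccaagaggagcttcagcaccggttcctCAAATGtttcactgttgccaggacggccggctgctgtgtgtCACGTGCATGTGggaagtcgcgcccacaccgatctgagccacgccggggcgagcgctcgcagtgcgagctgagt
The Il21r window held 1 E-box, the Epor window 5, of which 3 were CAGCTG, and the Il6ra window 4, of which 1 was CACCTG read on either strand. In the Il6ra window the last pair of E-boxes adjoins, so they form a single run of capitals. The 3 CAGCTG matches of Epor were the last of its E-boxes in reading order. If the RefSeq and listed starts coincide, the Il21r E-box lies upstream of the Il21r peaks of both lists. The first Il6ra E-box, and the Epor E-boxes other than CAGCTG, would also lie upstream of the peaks of those genes. The starts were not compared between builds, so which E-boxes lie within a peak was not determined. CAGCTG and CANNTG read the same on both strands as patterns, and CAGCTG and CACCTG matches are also CANNTG matches. Promoter windows were found for 42 of the 52 genes, 62 windows in all. Of these, 66.1% held a CANNTG, against 72.3% of all 32851 windows. For CAGCTG the shares were 17.7% and 16.3%, and for CACCTG on either strand 16.1% and 20.2%. The E-box share of the pathway's promoters was thus close to that of promoters in general, and a match is not a binding site.

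The remaining receptor genes had peaks inside the gene in a single list. Il6st encodes gp130, the signalling chain shared by the interleukin-6 family, and had a peak of 341 bases with pyruvate alone (chr13:113273270-113273611, 8.22 kb from the start). The nearest peak without pyruvate was 61.6 kb away. In the list without pyruvate alone, Lepr, the leptin receptor, had a peak of 294 bases 6.21 kb from its start. Il13ra1, which pairs with Il4ra, had a peak of 224 bases there, and Csf2rb2, a receptor chain for interleukin-3, one of 160 bases. Il11ra1, the interleukin-11 receptor chain, had 2 peaks, 266 and 264 bases wide. Csf2rb2 and Il11ra1 have near-identical copies, Csf2rb and Il11ra2. These copies had no peak in the gene or its 2-kb flanks, so the source of the reads at Csf2rb2 and Il11ra1 is uncertain. Of 45 receptor genes listed likewise, 29 had no peak in the gene or its 2-kb flanks, among them Lifr, Osmr, Ifngr1 and Csf3r.

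All 3 Jak kinases with a peak had a site in both lists, which 52.2% of all genes had. On 3 genes this is a description and was not tested. Jak1, which serves the gp130 and interferon receptors, had sites 62.4 and 28.3 kb from its start with pyruvate. They were 341 and 282 bases wide with pyruvate and 341 and 283 bases without, so the widths were almost equal. A further 2 peaks of Jak1, 206 and 215 bases wide, were in the list without pyruvate alone. Jak2, the kinase of the growth hormone and erythropoietin receptors, had 1 site 43.1 kb from its start, 281 bases wide with pyruvate (chr19:29369315-29369596) and 399 bases without pyruvate (chr19:29369269-29369668). Tyk2 had a site in both lists close to its start, at 958 bases with pyruvate (229 bases wide) and 986 bases without (296 bases). Its other peak, 10.1 kb from the start and 252 bases wide, was in the list without pyruvate alone. Jak3, which is known mainly from lymphoid cells, had no peak in the gene or its 2-kb flanks.

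The Stat genes with a peak were Stat3, Stat5a, Stat5b and Stat6, and none of them had a peak within 2 kb of its start in either list. Over all genes, 18.6% had a peak within 2 kb of a start or in a flank of unknown side in both lists. A further 5.83% had one only with pyruvate and 17.4% only without. With 4 genes the Stat count is a description and was not tested. Stat5b, Stat5a and Stat3 lie next to each other on chromosome 11. Stat5b had 1 site in both lists, 305 bases wide with pyruvate (chr11:100666929-100667234) and 304 bases without pyruvate (chr11:100666915-100667219), 45.0 kb from its start. Stat3 had a site in both lists 27.0 kb from its start with pyruvate, 169 bases wide, against 209 bases without. Stat3 had a further peak of 172 bases with pyruvate alone. Stat5a, whose protein shares most of its functions with Stat5b, had 3 peaks in the list without pyruvate alone, 260, 193 and 284 bases wide at 2.30, 2.91 and 3.99 kb from its start. The nearest peak with pyruvate was 30.8 kb or more from each of them. Stat6, the factor downstream of Il4ra, had 1 peak of 170 bases without pyruvate alone. Stat2, Stat4 and Irf9 had no peak in the gene or its 2-kb flanks.

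**Figure D3:**
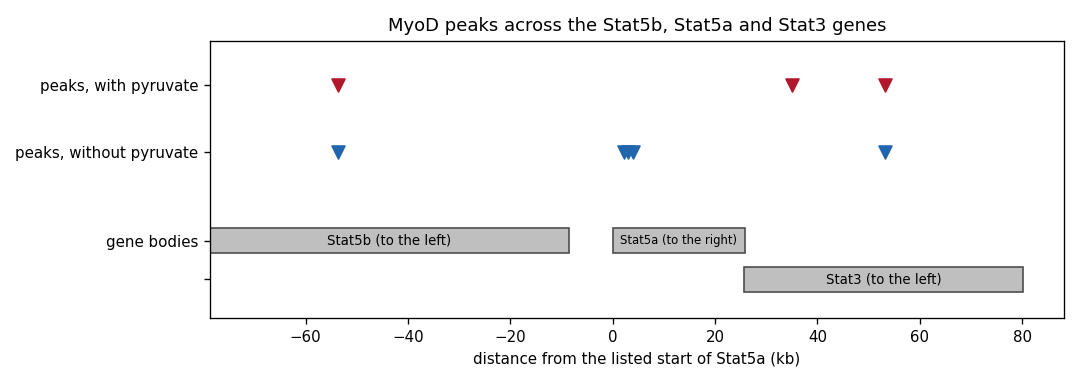
Map of Stat5b, Stat5a and Stat3 (grey bodies, with the direction of transcription) and of all peaks of either list across them, with distance from the listed start of Stat5a in kb on the x axis. Triangles in the upper row are peaks with pyruvate and those in the lower row peaks without pyruvate. The rows match at Stat5b and at 1 site of Stat3, while the 3 peaks in Stat5a are in the lower row alone.

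The feedback inhibitors were Socs1, Socs2, Socs6 and Socs7. Socs2, which restrains growth hormone signalling, had a site in both lists 7.83 kb from its start with pyruvate (247 bases, and 248 bases without pyruvate). It had a peak at its start in the list with pyruvate alone, 243 bases wide (chr10:94879408-94879651, from 163 to 406 bases downstream of the start), and one of 205 bases 9.09 kb from the start in the list without pyruvate alone. Socs7 had 1 site in both lists, 274 bases with pyruvate and 192 without, and a second shared site outside all gene regions 2685 bases beyond its listed region, 361 bases wide with pyruvate (chr11:97262541-97262902) and 217 without. Socs1, an inhibitor of interferon gamma signalling, had a flank peak of 206 bases in the list without pyruvate alone (chr16:10782180-10782386). A site 5181 bases from that flank, outside all gene regions, was in both lists, 237 bases wide with pyruvate and 369 without. Socs6 had 2 peaks without pyruvate alone, 199 and 170 bases wide. Socs3, the main brake on gp130 signalling, had no peak in the gene or its 2-kb flanks, nor had Socs4, Socs5 and Cish.

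The adaptor and kinase arm links the receptors to PI3-kinase, Akt and MAP kinase. Of its 20 genes listed, 8 had no peak in the gene or its 2-kb flanks. Of the other 12, 7 had a peak in both lists, 0 only with pyruvate and 5 (Akt1, Pik3cb, Pik3cd and Sos2 among them) only without. Over all genes the shares were 55.1%, 9.95% and 35%, and the split of these 12 genes was not tested. The endosomal adaptor gene Stam had the arm's widest peak without pyruvate. Its site was 447 bases wide with pyruvate (chr2:14058504-14058951) and 558 bases without pyruvate (chr2:14058480-14059038). These stood at the 93.5 percentile of width with pyruvate and the 97.9 percentile without. Akt2, the Akt kinase of insulin action, had 4 peaks with pyruvate and 2 without, and both peaks without pyruvate overlapped peaks with pyruvate. Akt2, Bcl2l1, Stat3, Pik3ca, Il12rb2 and Il6st were the genes of the 52 with more peaks in the list with pyruvate. The share of all genes with more peaks in that list was not computed, and the lists differ in length. Pik3r3, a regulatory subunit of PI3-kinase, had the arm's widest peak with pyruvate, at a site 459 bases wide with pyruvate and 265 without. Pik3r1, another regulatory subunit, had one 257 bases wide with pyruvate and 366 without. Start-site peaks without pyruvate alone were found at Pik3r1 (190 bases, 111 bases from the start) and at the adaptor gene Grb2 (215 bases, 142 bases upstream of the start). Pik3ca and Grb2 also had 1 internal site each in both lists.

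Of 10 target genes listed, 4 had no peak in the gene or its 2-kb flanks. The other 6 all had a site in both lists, which 52.2% of all genes had. They are survival and cell-cycle genes that Stat factors are known to regulate. In the list with pyruvate 12 of their 13 peaks overlapped the other list, against 71.5% over all gene regions, and in the list without pyruvate 12 of 17 did, against 46.9%. With so few genes these counts are a description and were not tested. The 13 and 17 peaks at 6 genes compare with means of 1.19 and 1.79 peaks per gene over all genes. The part of peak number in the overlaps was not tested. Ccnd3, which encodes cyclin D3, a cyclin known to rise as myoblasts differentiate, had 5 sites, and all 5 were in both lists. From the start inward they were 300, 554, 444, 405 and 393 bases wide with pyruvate, against 240, 569, 210, 257 and 381 bases without pyruvate. The site of 554 and 569 bases (chr17:47658632-47659186 with pyruvate, 16.9 kb from the start) was the widest at any of the 52 genes in both lists. The third and the fourth of these sites were wider with pyruvate than without by 234 and 148 bases. Ccnd1, cyclin D1, had 1 site in both lists, 379 bases with pyruvate and 338 without, and 2 peaks without pyruvate alone.

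Among the survival genes, Bcl2 had sites 86.8 and 84.0 kb from its start in both lists, the first 308 bases wide with pyruvate and 435 without and the second 285 and 277 bases. Bcl2l1, which encodes Bcl-xL, had 2 sites in both lists and a peak of 486 bases with pyruvate alone (chr2:152630152-152630638, 27.1 kb from its start), at the 95.4 percentile of width in that list. It was the widest unpartnered peak at any of the 52 genes, and the nearest peak without pyruvate was 5297 bases away. The downstream flank site of Bcl2l1 also lay in a region of Cox4i2. Mcl1 had a flank site in both lists, 260 bases with pyruvate and 304 without. Myc had a site in both lists upstream of its start, 185 bases wide with pyruvate (389 bases upstream) and 272 without (375 bases upstream). Peaks 1764 bases upstream and 1314 bases downstream of the Myc start were in the list without pyruvate alone. The coactivator gene Crebbp had a flank site in both lists, 198 bases with pyruvate and 230 without. Aox3l1 had 1 site in both lists, 180 bases with pyruvate and 289 without, and 2 further peaks without pyruvate alone.

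Where the same site was called in both lists, the peaks could be compared in width, the only measure per peak. Over the 41 shared pairs at pathway genes the median width was 285 bases with pyruvate and 289 without. The peak with pyruvate was the wider in 19 pairs, that without pyruvate in 21, and 1 pair was equal. The share wider with pyruvate was 46.3%, against 40% of the 5357 shared pairs in gene regions. Differences (with minus without pyruvate) ran from -127 bases at Bcl2 to 234 bases at Ccnd3, with a median of -1 base, against -18 bases over all gene regions. The midpoints of a pair lay a median of 16.5 bases apart and at most 61.5. Width has no error here, and its dependence on read depth was not tested.

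**Figure D4:**
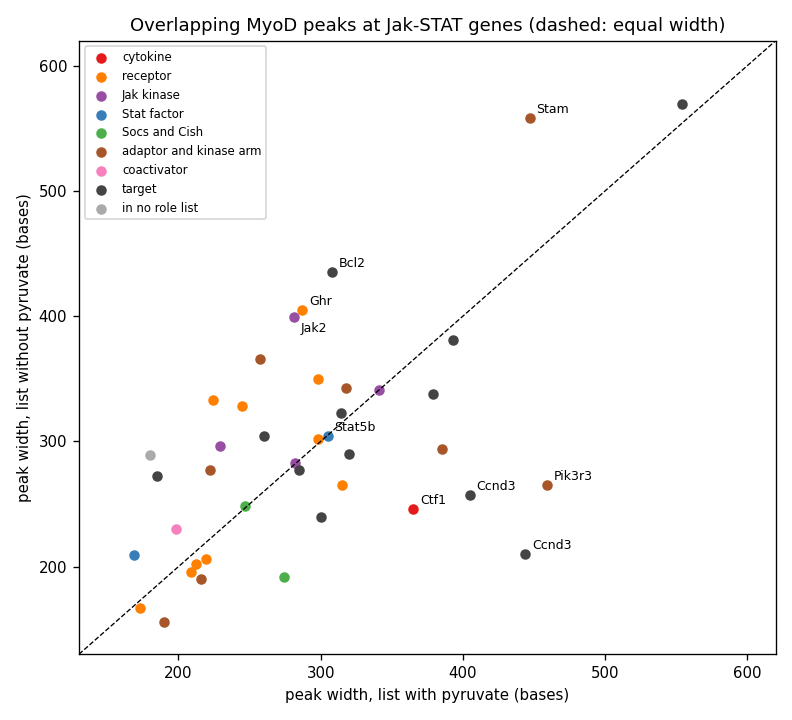
Width in bases of each of the 41 overlapping peak pairs at pathway genes, with pyruvate on the x axis and without pyruvate on the y axis, coloured by role. The dashed line marks equal width. Points fall on both sides of it, with 2 Ccnd3 sites and Pik3r3 farthest below and Bcl2, Ghr and Jak2 above.

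Unpartnered peaks at the pathway genes were narrower than partnered ones in both lists. With pyruvate the medians were 199 bases for 12 unpartnered peaks and 285 for 41 partnered ones. Without pyruvate they were 215 bases for 44 and 289 for 41. The same held over all gene regions, with 217 and 264 bases with pyruvate and 211 and 284 bases without.

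Most of the binding lay away from start sites. Peaks within 2 kb of a listed start or in a flank of unknown side, called proximal here, were 11 of 53 with pyruvate (20.8%, interval 10.8 to 34.1) and 18 of 85 without (21.2%, 13.1 to 31.4). Over all gene regions the shares were 22% and 21.1%. By gene, 8 had a proximal peak in both lists (15.4%, against 18.6% of all genes): Ctf1, Il21r, Il2rb, Il4ra, Tyk2, Crebbp, Mcl1 and Myc. In 3 it was seen only with pyruvate (5.77%, against 5.83%), Il6ra and Socs2 among them. In 9 it was seen only without (17.3%, against 17.4%): Il5, Thpo, Epor, Ifnar2, Il10rb, Socs1, Akt1, Grb2 and Pik3r1. For 8 of the 52 genes (Akt1, Crebbp, Ctf1, Ifnar2, Il2rb, Il4ra, Mcl1, Socs1) the files list only a flank of unknown side, so the peak may lie downstream of the gene.

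**Figure D5:**
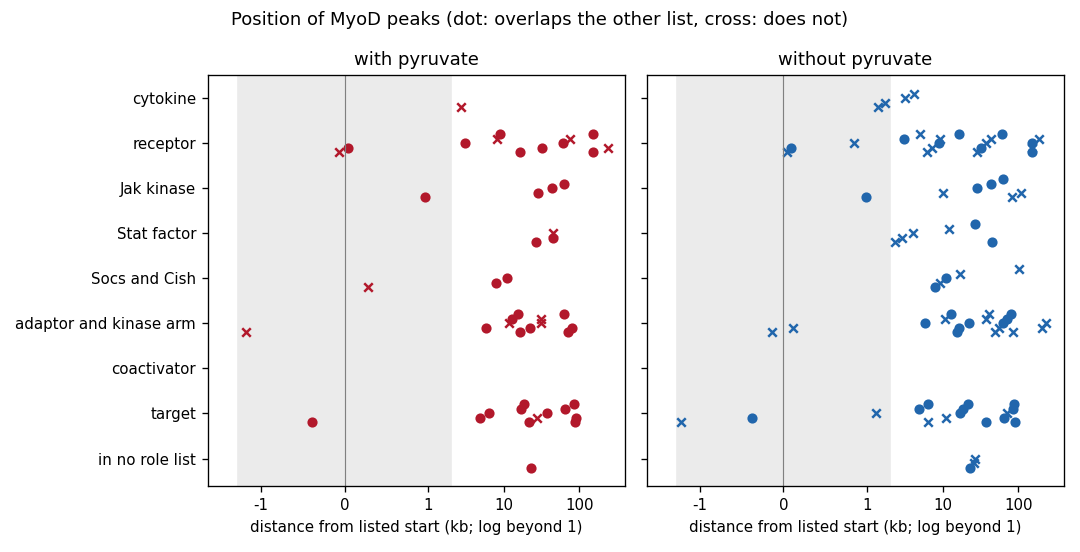
Distance in kb from the listed start to each peak's midpoint at the 44 genes with a listed body (x axis, linear within 1 kb and logarithmic beyond), by role (rows), with pyruvate on the left and without on the right. Dots are peaks that overlap the other list and crosses are those that do not, and the grey band is the 2-kb window. Most points lie beyond the band in both panels, and the rows of the 4 Stat genes and of Aox3l1 have none inside it.

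Several genes carried more than 1 peak. With pyruvate 5 of the 52 genes had 3 or more (9.62%, against 12.1% of all genes), namely Ccnd3, Akt2, Ghr, Il23r and Bcl2l1. Without pyruvate 10 did (19.2%, against 18.3%), namely Ccnd3, Ghr, Il23r, Jak1, Stat5a, Grb2, Bcl2, Ccnd1, Myc and Aox3l1. Bodies of the pathway genes had a median length of 58.9 kb (44 genes), against 47.8 kb over the 5774 genes with a listed body. Genes with a peak in both lists had a median body of 62.8 kb and those with one only without pyruvate 39.6 kb, so gene length moves with this division. Its part in the division was not tested. Beyond their shared pathway, 25 of the 52 genes also carried the PI3K-Akt pathway in the deposited annotation and 21 the cytokine-receptor interaction pathway. In the RefSeq gene order 5 pairs of them were next to each other: Stat5b with Stat5a, Stat5a with Stat3, Ifnar2 with Il10rb, Il12rb2 with Il23r, and Il4ra with Il21r.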

How the data were processed

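MyoD ChIP-seq peaks of 2 libraries were described, 1 from myotubes with pyruvate and 1 from myotubes without. Which list is which condition rests on the sample titles alone: abbreviations in the deposited names could be read the other way round, and nothing measured here checks them. The submitters' processing notes name build mm9 and the tools MACS2 2.1.1, Bowtie2 2.1.0 and bcl2fastq 2.19. Calling thresholds, whether inputs were used, and where gene models came from: not given in the sources used here. Per the file headers, the deposited files give for each peak its position, a fold enrichment ratio and each gene region touched. The deposited fold values were 0 throughout, so width (end minus start) was the only measure. Coordinates are as deposited, and depth is unknown.

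Rows were reduced to distinct peaks, and gene IDs were pooled by symbol. Peaks were partnered when they overlapped by at least 1 base. Distances run from the peak's midpoint to the start of the gene body listed for that ID. Percentiles of width are mean ranks within a list. Intervals are exact binomial and cover counting error only. The members, the role lists (159 genes) and the comparisons were chosen with earlier results of these data known. The files name only genes with a peak in the gene or its 2-kb flanks. No share of all mouse genes therefore stands beside counts of role-list genes with or without one. Every cytokine, receptor, Jak, Stat, Socs and Cish gene with a row is named. Promoters were to be printed by peak width among genes with a peak within 2 kb of a start. After the values were seen, the choice was changed to genes whose peak spans the start. Symbols of 51 of the 52 genes were found in RefSeq. Overlap and position code was tested on simulated data. Tables were handled in pandas 2.3.3 and numpy 2.4.6 under Python 3.11.15, intervals in scipy 1.17.1, plots in matplotlib 3.10.9. Some items are not reported here.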

Additional observations from a re-analysis of the deposited data

How the results depend on the processing

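Of 36 alternatives 21 stayed within their bounds and 15 moved. With peaks of at least 250 bases, 16 genes were in both lists and 12 only in the list without pyruvate, and 34 of the 56 role-list genes named in the files kept a row, since fewer peaks were left. The list without pyruvate was also trimmed by width to the length of the list with pyruvate. This left 42 genes with a peak, 24 in both lists, 9 only with pyruvate and 9 only without. Overlapping shares were then 60.4% with pyruvate and 60.4% without, against 77.4% and 48.2% untrimmed. The trim left fewer peaks to be overlapped by those with pyruvate and took away narrow peaks without pyruvate. The causes of the moves were not tested. Proximal peaks alone gave 8 genes in both lists and 9 only without. Proximal shares were 35.8% with pyruvate and 41.2% without at 10 kb, and 12.9% without pyruvate at located starts alone. Unpartnered peaks with pyruvate had a median of 199 bases. Member promoters held CAGCTG in 17.7% and CACCTG in 16.1% of windows, by construction fewer than CANNTG. No paired analysis was possible because each condition had 1 library. Depth is unknown and limits every statement on a peak seen in 1 list.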

Other observations

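Inhibitors of the pathway whose annotation does not carry the pathway's name were also bound. Of 15 other inhibitor genes on the role list, 5 had a peak in the gene or its 2-kb flanks, and none of these 5 carried the name. The annotation of the other 10 was not seen. The share of all mouse genes with a peak was not computed, so the count of 5 is a description. Cblb, a ubiquitin ligase that restrains cytokine and growth factor receptors, had a site 3482 bases from its start with pyruvate that was 225 bases wide with pyruvate (chr16:52035031-52035256) and 757 bases wide without pyruvate (chr16:52034631-52035388). The peak without pyruvate stood at the 99.7 percentile of width in its list. A second Cblb site was 315 bases wide with pyruvate and 179 without, and a peak of 187 bases near the start was in the list with pyruvate alone. Its relative Cblc had a downstream flank site in both lists (366 bases with pyruvate, 296 without). Cblc also had a peak of 218 bases inside the gene with pyruvate alone. The Ras-MAP kinase inhibitors Spry2, Spred1 and Spred2 each had 1 site in both lists, 199, 230 and 229 bases wide with pyruvate and 230, 256 and 250 bases without. Spred2 had a further peak of 197 bases with pyruvate alone, and peaks of 400 and 237 bases without pyruvate alone. These genes were outside the 52 and were described after their values were seen.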
